A study of Mus musculus with 6 samples.

Results

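Genes of programmed cell death and of the p53 pathway were followed in the embryonic mouse retina: Bcl2 and Bok of the BCL2 family, Casp8 and Cflar of the caspase-8 axis, the p53 regulator Mdm4, and the p53 target genes Phlda3 and Btg2. These 7 genes were chosen by name, and all had 1 row each among the 1140 complete rows of chromosome 1 that were analysed. All 7 were also among the 646 rows that the authors had tested. They were chosen with earlier results of these data known, so this is no finding about them. The libraries compare C57BL/6 control retinas of genotype T2fx/+, an allele of Tbr2 that the submitters count as wild type, with T2Isl1/+ retinas, in which Isl1 was knocked in at Tbr2. Both genotypes are heterozygous, and all retinas were taken at E15.5, the embryonic stage given in the labels. Each group had 3 libraries of total RNA, each from a pool of 8 retinas. Every group value is 1 estimate into which the 3 libraries had been combined, so no SD can be given and library depth is unknown. The unit is inferred to be FPKM, sequenced fragments relative to transcript length and library size. The labels do not say whether the pools came from separate litters.

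Programmed cell death removes many newly made neurons from the developing retina, ganglion cells among them. In the mitochondrial route, anti-apoptotic BCL2 proteins hold back the pore-forming members of the same family, while in the death receptor route caspase-8 is activated on ligand binding and CFLAR limits that step. The transcription factor p53 feeds into cell death and cell cycle exit through its target genes, and MDM4 binds p53 and restrains it. Isl1 is a LIM-homeodomain factor that ganglion cells need to differentiate and survive, and Tbr2, the product of Eomes, is a T-box factor present in only some ganglion cells. The knock-in allele is therefore read out in whole retinas in which only some cells use the Tbr2 promoter. In such bulk samples fewer cells of a type and less RNA per cell cannot be told apart.

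None of the 7 genes passed the authors' test of a difference between the genotypes. At a q-value under 0.05, 0 of 7 were called, against 1.55% of all tested rows (10 of 646). At an unadjusted p-value under 0.05 the count was again 0 of 7, against 3.72% of tested rows. With the p-values adjusted over the analysed rows alone it was 0 of 7, against 1.7%. Likewise 0 of 7 reached a 1.5-fold difference, against 3.25%. Beside backgrounds this low, a count of 0 among 7 is no result about these genes, and it does not show that their levels were equal. The q-value of every member was 0.9997 in the authors' deposited table, a value shared with 97.4% of tested rows. The log2 ratios of knock-in over control ran from -0.11 for Cflar to 0.16 for Bok in the authors' deposited table. Their median was 0.0003, beside 0.01 over all tested rows, with 4 genes above control and 3 below. Among all tested rows 54.6% were above control. The median size of the log2 ratio, sign left out, was 0.08 for the 7 genes and 0.09 for all tested rows.

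The anti-apoptotic gene Bcl2 and the pro-apoptotic gene Bok had similar levels, with opposite signs of difference. Bcl2 (XLOC_000988, chromosome 1, 106538101 to 106714654, minus strand, mm10) encodes a protein that protects the outer mitochondrial membrane. It stood at 11.3 FPKM in T2fx and 10.6 FPKM in T2Isl1 retinas, per the authors' deposited table, a log2 ratio of -0.09 with an unadjusted p of 0.459. Bok (XLOC_000318, 93685694 to 93695762, plus strand) encodes a BAX-like protein that can permeabilise that membrane. It stood at 15.49 FPKM in T2fx and 17.3 FPKM in T2Isl1 retinas, per the authors' deposited table. That log2 ratio of 0.16, or 1.12-fold, was the largest of the 7 genes, and 76.0% of all tested rows had a smaller one in size. Its unadjusted p of 0.233 in the authors' deposited table was the smallest of the 7. Bok was thus above Bcl2 in both groups, by 1.37-fold in control and by 1.63-fold in knock-in retinas. This change of the ratio, 0.25 on the log2 scale, was not tested.

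The death receptor initiator caspase-8 and its inhibitor were expressed at low levels, the inhibitor at the higher one. Casp8 (XLOC_000141, 58795374 to 58847503, plus strand) stood at 3.04 FPKM in T2fx and 3.04 FPKM in T2Isl1 retinas, per the authors' deposited table. Its log2 ratio of 0.0003 (p = 0.998, the authors' deposited table) was the smallest in size of all tested rows. Cflar (XLOC_000140, 58711234 to 58759209, plus strand) encodes c-FLIP, a caspase-8 relative without protease activity. It stood at 6.20 FPKM in T2fx and 5.75 FPKM in T2Isl1 retinas, per the authors' deposited table, a log2 ratio of -0.11 with an unadjusted p of 0.594. Cflar exceeded Casp8 by 2.04-fold in control and by 1.89-fold in knock-in retinas. The genes lie next to each other on the same strand, 36.2 kb apart, with no other tested row between them. A gene-level value joins the isoforms of a gene. For Cflar, with 4 annotated protein-coding transcripts of 13, the long and short forms of the protein cannot be separated here.

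Mdm4, the p53 regulator of the set, was expressed at an intermediate level. Mdm4 (XLOC_001050, 132985989 to 133030587, minus strand) stood at 13.2 FPKM in T2fx and 12.5 FPKM in T2Isl1 retinas, per the authors' deposited table. Its log2 ratio was -0.08 with an unadjusted p of 0.512 in the authors' deposited table. The annotation gives it 14 transcripts, 5 of them protein-coding. The annotated gene begins at 132959484, outside the deposited row, so the row does not span all of these transcripts. Its gene-level value joins those that were counted, and which these were is not known here.

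The 2 p53 target genes stood at opposite ends of the range of levels. Btg2 (XLOC_001061, 134074865 to 134079155, minus strand) encodes an anti-proliferative protein, also known from neural progenitors that are about to produce neurons. It stood at 79.5 FPKM in T2fx and 83.4 FPKM in T2Isl1 retinas, per the authors' deposited table, a log2 ratio of 0.07 with an unadjusted p of 0.522. That placed it at rank 41 of the 646 tested rows in control and at rank 35 in the knock-in. Phlda3 (XLOC_000423, 135766085 to 135769134, plus strand) encodes a small pleckstrin homology protein that restrains AKT signalling. It stood at 2.94 FPKM in T2fx and 3.05 FPKM in T2Isl1 retinas, per the authors' deposited table, a log2 ratio of 0.05 with an unadjusted p of 0.805. Btg2 exceeded Phlda3 by 27.1-fold in control and by 27.4-fold in knock-in retinas.

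The promoters of these 2 genes are shown because p53 targets are the members for which a shared upstream factor is known. The sequences are the 250 bases before the RefSeq start site (GRCm38.p6, which uses the mm10 coordinates), 5′ to 3′ on the gene's strand, from chr1:134079156-134079405 (minus strand) and chr1:135765835-135766084 (plus strand). Capitals mark a cAMP response element, TGACGTCA, which reads the same on both strands.
Btg2: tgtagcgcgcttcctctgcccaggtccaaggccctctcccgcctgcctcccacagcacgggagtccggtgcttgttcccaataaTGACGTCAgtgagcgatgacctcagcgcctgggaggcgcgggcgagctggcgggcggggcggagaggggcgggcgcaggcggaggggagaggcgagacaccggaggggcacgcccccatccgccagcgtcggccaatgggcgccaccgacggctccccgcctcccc
Phlda3: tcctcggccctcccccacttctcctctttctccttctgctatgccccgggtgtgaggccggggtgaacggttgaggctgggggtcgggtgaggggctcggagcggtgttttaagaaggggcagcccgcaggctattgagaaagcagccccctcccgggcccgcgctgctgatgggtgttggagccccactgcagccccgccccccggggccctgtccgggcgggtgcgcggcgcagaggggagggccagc
The element in Btg2 begins 166 bases before the start site. Among the 8 promoter windows of the 7 genes (250 bases before to 50 after each start, Mdm4 having 2 starts) it was found in that 1 window, against 1.79% of all 32851 windows. A single window among 8 is no result about these genes, and no use of the element was tested. The p53 half-site consensus, searched on both strands, was found in 0 of the 8 windows, against 8.36% of all windows, which says only that these letters are not in this short stretch. Btg2 and Phlda3 share a base composition rich in G and C, 72.0% and 71.7% of the window, against a median of 52.7% over all windows. Bcl2 had 76.0%, while Cflar had 45.0% and Casp8 42.0%. The only Casp8 window, 58802252 to 58802551, lies inside the Casp8 row. The annotated start at 58795374, where that row begins, was not searched.

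Ordered by level, the control retinas gave Btg2, Bok, Mdm4, Bcl2, Cflar, Casp8 and Phlda3. The knock-in retinas gave the same order except that Phlda3 stood above Casp8, a pair that differed by only 1.04-fold in control. In control retinas Bok was 1.17-fold above Mdm4 and Mdm4 1.17-fold above Bcl2, while Bcl2 was 1.82-fold above Cflar and Btg2 was 5.13-fold above Bok. With 1 value per group, no step of this order could be tested. The plot of levels by group shows the genotype differences, at most 1.12-fold, beside a 27.1-fold range from the lowest to the highest gene in control. Casp8 and Phlda3 differed from each other by less than Bok, Cflar or Bcl2 differed between genotypes.

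**Figure D1:**
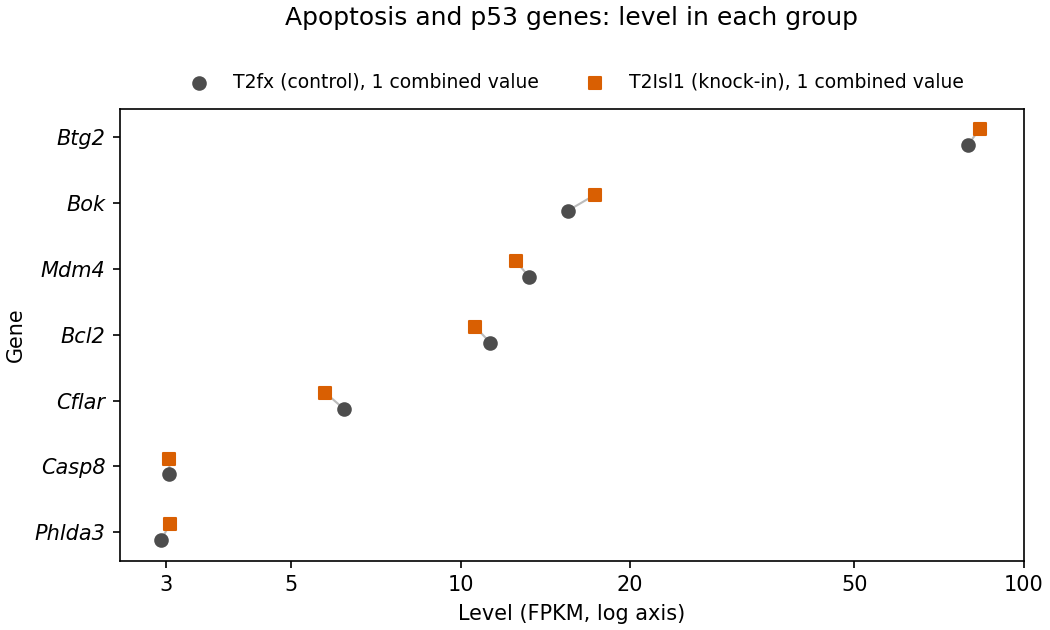
Level of the 7 genes in FPKM (log axis), with 1 combined value per group of 3 libraries and no error bars because values per library were not used. The circle (T2fx) and the square (T2Isl1) of each gene lie close together, from 2.94 FPKM for Phlda3 to 83.4 FPKM for Btg2.

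Spread between replicates could not serve as a yardstick, so each gene was set beside tested rows of similar level, within 2-fold of its own mean. For Bok, 249 such rows had log2 ratios from -0.16 (percentile 5) to 0.18 (percentile 95), and its 0.16 lay inside. The 211 rows near Cflar ran from -0.20 to 0.21 between the same percentiles, around its -0.11. Low genes spread more widely: the 143 rows near Casp8 ran from -0.33 to 0.31. All 7 genes lay inside the range of their level. This spread is between genes and is no measure of replicate error. Within the levels these genes span, 2.99 to 81.5 FPKM, 477 rows were tested. There the smallest difference with an unadjusted p under 0.05 was 1.18-fold (Mob4, looked up after its value was seen), and over all tested rows the smallest called difference was 1.79-fold (Rftn2). The 7 genes, at 1.12-fold or less, were below both sizes, so their differences were smaller than any that this test picked out at these levels.

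**Figure D2:**
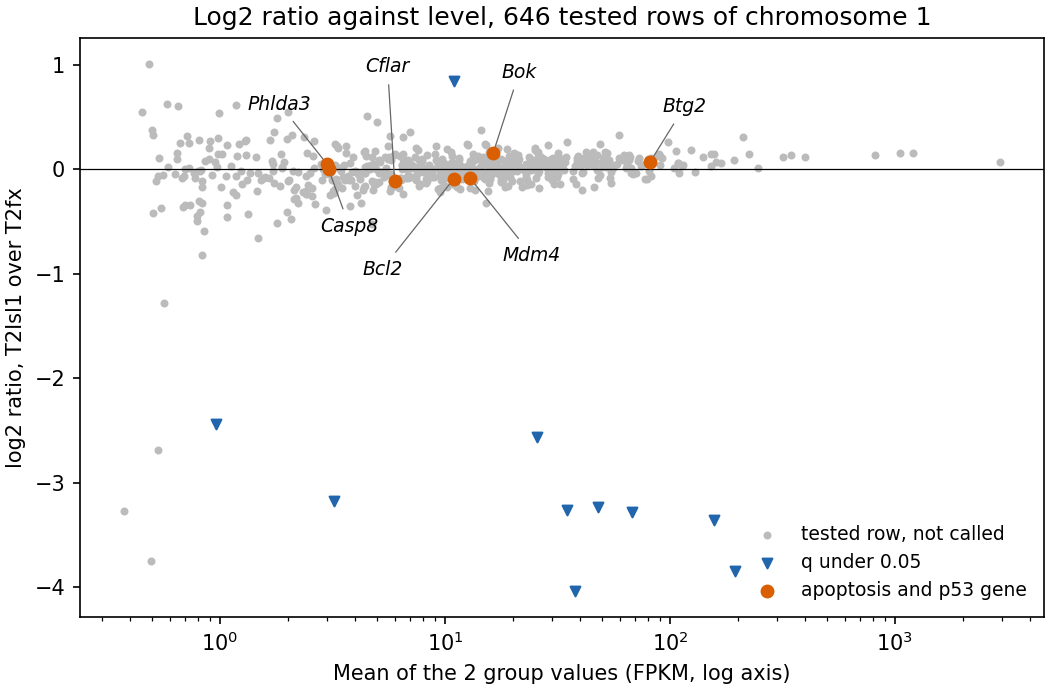
Log2 ratio of T2Isl1 over T2fx against the mean of both group values (FPKM, log axis) for the 646 tested rows, with rows of q under 0.05 as triangles. The 7 apoptosis and p53 genes, in orange and named, lie between -0.11 and 0.16, inside the band of uncalled rows.

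A wider set of genes from these pathways was read in the same way. Of a wider list of 140 apoptosis and p53 genes, 25 had a row among those analysed, and 18 of these were tested. At a q-value under 0.05, 0 of 18 were called, against 1.55% of all tested rows, and 0 had an unadjusted p under 0.05, against 3.72%. Counts of 0 are near those shares and are no result about this list. There were 11 above control and 7 below, with a median log2 ratio of 0.02, where 54.6% of all tested rows were above. When both groups were rescaled to equal sums outside the lens genes, 5 were above control. That rescaling lowers every log2 ratio by 0.07, which puts the median tested row, 0.01 as deposited, below control too. The list's 11 caspases and caspase inhibitors had no row analysed here. Of its receptors, ligands and adaptors around death receptor signalling, those with a row, Tnfrsf11a, Tnfsf4, Tnfsf18 and Pdcd1, had too little signal to be tested, at most 0.225 FPKM in the authors' deposited table.

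Among these tested genes 5 were p53 regulators, 1 above control and 4 below, with log2 ratios from -0.07 to 0.05 in the authors' deposited table. Parp1, which senses DNA breaks, was the most abundant, at 84.4 FPKM in T2fx and 80.8 FPKM in T2Isl1 retinas, per the authors' deposited table. Rfwd2, which encodes the p53 ubiquitin ligase COP1, stood at 32.8 FPKM in T2fx and 34.0 FPKM in T2Isl1, per the authors' deposited table. Trp53bp2, whose product ASPP2 binds p53, stood at 12.2 FPKM in T2fx and 11.7 FPKM in T2Isl1, per the authors' deposited table. The remaining 2 were Ing5 and Bard1, with log2 ratios of -0.07 and -0.05 in the authors' deposited table.

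Of the wider list's p53 target genes 3 were tested, with log2 ratios from -0.01 to 0.26. Ier5, an immediate early gene, stood at 48.5 FPKM in T2fx and 52.2 FPKM in T2Isl1 retinas, per the authors' deposited table. Rgs16, a regulator of G-protein signalling, stood at 26.3 FPKM in T2fx and 26.1 FPKM in T2Isl1, per the authors' deposited table. Steap3, a metalloreductase gene, was the third, at 0.605 FPKM in T2fx and 0.723 FPKM in T2Isl1, with a log2 ratio of 0.26 (unadjusted p = 0.439) in the authors' deposited table. That is close to the highest level among rows that were not tested, 0.516 FPKM.

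The co-chaperone gene Bag2 stood at 8.44 FPKM in T2fx and 9.89 FPKM in T2Isl1 retinas, per the authors' deposited table, a log2 ratio of 0.23 with an unadjusted p of 0.137, the smallest of the wider list. Tmbim1, of a family that includes a BAX inhibitor, stood at 1.80 FPKM in T2fx and 1.14 FPKM in T2Isl1, per the authors' deposited table, a log2 ratio of -0.66 with an unadjusted p of 0.236. It was the 1 gene of the 18 past 1.5-fold, which 3.25% of all tested rows were. Among 8 tested kinases and other regulators 7 were above control and 1 below, where 54.6% of all tested rows were above. Under the rescaling without lens genes 2 of the 8 were above and 6 below. That rescaling puts the median tested row below control as well, so this count is no result about these 8 genes. The highest log2 ratio among them was 0.14, for the mitochondrial chaperonin gene Hspd1 in the authors' deposited table. The apoptosis-inducing kinase gene Stk17b stood at 6.45 FPKM in T2fx and 6.80 FPKM in T2Isl1, and Dedd, which encodes a death effector domain protein, stood at 19.6 FPKM in T2fx and 20.5 FPKM in T2Isl1, per the authors' deposited table.

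**Figure D3:**
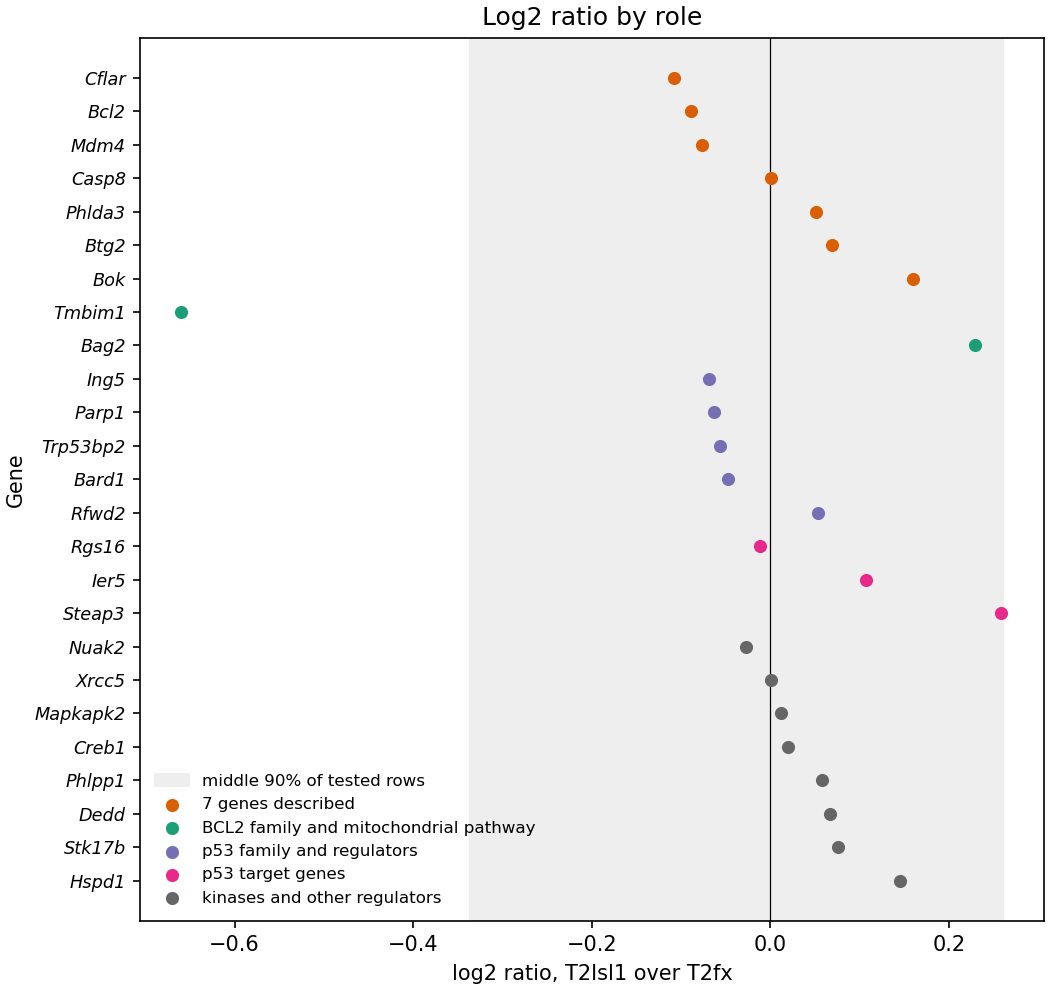
Log2 ratio of T2Isl1 over T2fx for the 7 genes and the 18 tested genes of the wider list, coloured by role, with the middle 90% of tested rows (-0.34 to 0.26) shaded. All 7 genes and 17 of the 18 lie in the shaded range, Tmbim1 outside it.

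The sign of the small differences went with transcript length. Tested genes were split into 5 groups by the longest annotated transcript (626 of 646 rows, 96.9%, had one). Bok and Phlda3, at 1468 and 1435 nucleotides, were in the shortest group, where 72.2% of all genes were above control and the median log2 ratio was 0.09. Casp8 and Btg2, at 2585 and 2743 nucleotides, were in the next group, where 71.2% were above control and the median was 0.04. Bcl2, Cflar and Mdm4, at 7191, 6572 and 7105 nucleotides, were all in the longest group, where only 22.4% were above control and the median was -0.08. These 3 are also the 3 members below control. Each also has shorter annotated protein-coding transcripts, such as 2841 nucleotides for Bcl2, 1771 for Cflar and 1914 for Mdm4, which would fall in shorter groups. Which transcripts were expressed cannot be told from a gene-level value. Relative to the median of its length group, no member differed by more than 0.07 on the log2 scale. Bok was then at 0.07, Btg2 at 0.02, Mdm4 at 0.0015, Bcl2 at -0.01, Cflar at -0.03, Phlda3 at -0.04 and Casp8 at -0.04. The opposite signs of Bcl2 and Bok were thus measured in genes at opposite ends of this trend, and the part of length in them was not tested further.

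**Figure D4:**
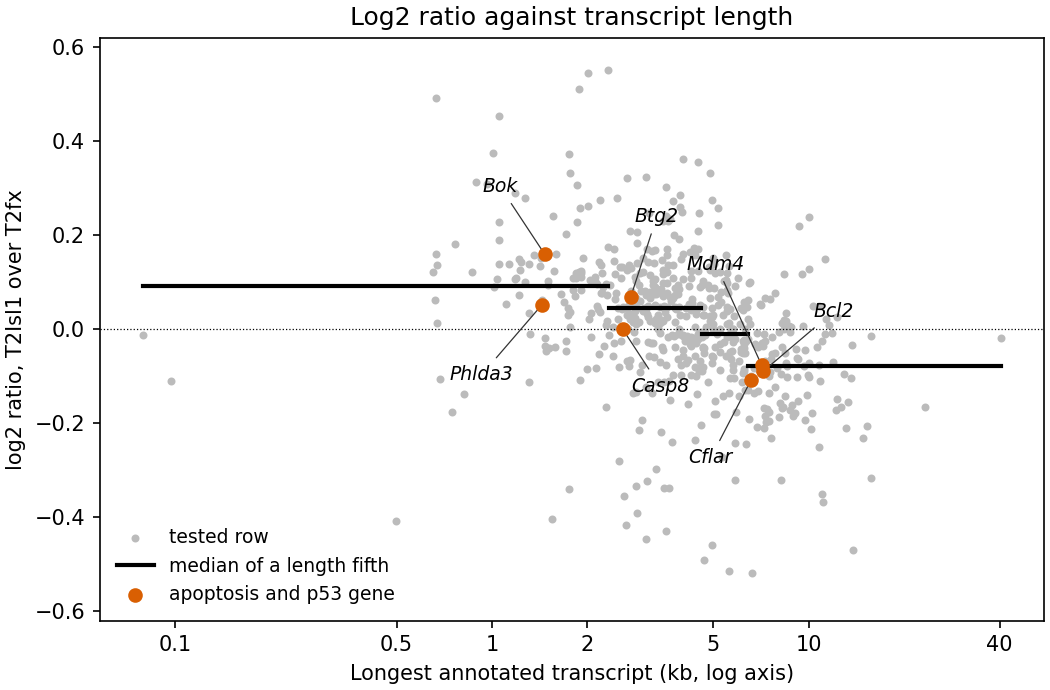
Log2 ratio of T2Isl1 over T2fx against the longest annotated transcript (kb, log axis) for tested rows, with the 7 genes in orange and the median of each of 5 length groups as a black line; 19 rows beyond the vertical axis are not drawn. Bcl2, Cflar and Mdm4 lie near the median of the longest group, -0.08, and Bok and Phlda3 on either side of that of the shortest, 0.09.

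Markers of other tissues differed between the groups by far more than these genes. All 7 lens genes tested, of 8 with a row and 16 listed, were called lower, as were 1.39% of all tested rows, and the summed level of the list was 1038 FPKM in T2fx and 93.6 FPKM in T2Isl1. Skeletal muscle markers (8 of 12 with a row) summed to 4.22 and 1.46 FPKM, with Chrng called lower of 3 tested. Vessel and connective tissue markers (6 of 13, all tested) summed to 38.1 and 29.3 FPKM, with Col3a1 called lower. Members of that list were unlike, per the authors' deposited table. Col3a1 had a log2 ratio of -3.18, Col5a2 of -0.52 (q = 0.0588), Fn1 of -0.17, Rgs5 of -0.07 and Cd34 of 0.04. Twist2 had -3.27 but was not called, at only 0.677 FPKM in T2fx and 0.0703 FPKM in T2Isl1, per the authors' deposited table. Leukocyte markers (3 of 9) summed to 0.708 and 0.642 FPKM. Lgsn, Chrnd and Il10 of these lists were listed at 0 in both groups. Retinal genes (7 of 24 with a row, all tested) summed to 522 and 550 FPKM with 0 called. That sum is mostly Hes6, at 380 and 414 FPKM per the authors' deposited table, and 5 of the 7 were below control, with a median log2 ratio of -0.05. The lowest were Lhx9 at -0.46 and Tfap2b at -0.32, the latter with an unadjusted p of 0.008 per the authors' deposited table. Retina-defining genes such as Pax6 and Six3 were not analysed here, nor were Isl1 and Eomes, so the knock-in itself was not checked. With both groups rescaled to equal sums of the analysed rows outside the lens genes, all log2 ratios shift down by 0.07. The median tested row, 0.01 as deposited, then falls below control too. Casp8, Phlda3 and Btg2 are then below control (-0.07, -0.02 and -0.0032), and Bok alone stays above, at 0.09. The part of other tissue in the values of the 7 genes was not tested.

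By likeness of both group values, the row nearest to Bcl2 was Bmpr2, a BMP receptor gene, at 11.2 FPKM in T2fx and 10.5 FPKM in T2Isl1 retinas, per the authors' deposited table. For Cflar it was Ptpn4, for Mdm4 Ppip5k2, for Bok Wdr75, for Btg2 Tmem9, for Casp8 Yod1 and for Phlda3 Casp8. The distances, over 2 points on the log2 scale, ran from 0.02 for Cflar to 0.05 for Bok. Between 27 (Btg2) and 88 (Bcl2 and Bok) rows lay within 0.5, so many genes were nearly as alike.

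Read strand may bear on 2 of the values. Overlaps were taken over whole annotated gene spans, introns included, and overlap of exons was not checked. For Mdm4 that span reaches beyond the deposited row. Bcl2 overlaps the antisense gene D630008O14Rik, beside the same-strand loci Mir3473f and Gm37053, and Mdm4 a pseudogene on the opposite strand, and the sources used here do not say whether reads were counted by strand. Bok, Cflar, Phlda3 and Btg2 overlap no other annotated gene, and Casp8 overlaps an unreviewed same-strand locus, Gm37760. All 7 genes are annotated as protein-coding in GENCODE M21.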

How the data were processed

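RNA from 6 retina libraries, 3 per genotype, was sequenced on Illumina instruments. TopHat2 2.1.1, Cufflinks 2.1.1, CASAVA and the build mm10 are listed in the submitters' processing notes, without an order. The authors deposited 1 FPKM value per gene and group, a unit inferred from the Cuffdiff layout, since the header says only value. The log2 ratio (T2Isl1 over T2fx, no pseudocount) is the authors', per the file headers. The p-value of each gene and the q-value adjusted from it were computed by the authors before deposition, per the file headers. The authors' test score, per the file headers, was not used. Of the rows, 1140 were complete and 1 was cut short and left out. Starts count from 0 in the table, so 1 was added.

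Values per library were not used here, so no gene was tested anew, and a gene was called at a q-value under 0.05. Transcript lengths came from GENCODE M21, promoters from RefSeq. Named were all 7 members, the nearest row of each, tested genes of the wider list, marker lists and neighbours. The members and lists were chosen with earlier results of these data known. A further result is left out. Python 3.11.15 and pandas 2.3.3 were used. The adjustment and length grouping were tested on simulated data.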

Additional observations from a re-analysis of the deposited data

How the results depend on the processing

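The 7 genes gave 0 calls at a q-value under 0.05 or 0.01, at an unadjusted p-value under 0.05, after Benjamini-Hochberg adjustment restricted to the analysed rows, and at 1.5-fold. For the wider list the counts were 0, 0, 0, 0 and, at 1.5-fold without a test, 1 (Tmbim1). The members' median log2 ratio stayed between -0.04 and 0.03 with any 1 member left out. It was 0.0003 with a pseudocount of 1, -0.01 relative to all tested rows, -0.07 rescaled without lens genes, and -0.01 relative to length groups. Over the 5 members of at least 5 FPKM it was -0.08. Casp8 changed sign under the last 3 of the scalings named, Phlda3 under the last 2, Btg2 under the lens rescaling and Mdm4 under the length groups. None of these differences had passed the test. Bok stayed above and Bcl2 and Cflar below control in all.

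No paired analysis was possible because each genotype has a single value that merges its 3 libraries. Leaving out a library was not run for the same reason.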

Other observations

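Tested rows beside 5 of the 7 genes were looked up as further context. Kdsr, 5.76 kb from Bcl2, stood at 4.54 FPKM in T2fx and 4.93 FPKM in T2Isl1 retinas, per the authors' deposited table. Thap4, 9.63 kb from Bok, stood at 15.8 FPKM in T2fx and 16.7 FPKM in T2Isl1, and Pik3c2b, 15.4 kb from Mdm4, stood at 7.04 FPKM in T2fx and 6.65 FPKM in T2Isl1, per the authors' deposited table. Csrp1, 13.9 kb from Phlda3, stood at 39.1 FPKM in T2fx and 41.1 FPKM in T2Isl1, per the authors' deposited table. On the other side of Phlda3, 30.2 kb away, lies Tnni1, a troponin gene of slow muscle, at 0.917 FPKM in T2fx and 0.143 FPKM in T2Isl1, and its q-value was 0.9997 per the authors' deposited table. A row without a gene name, 12.7 kb from Btg2, stood at 1.95 FPKM in T2fx and 1.75 FPKM in T2Isl1, per the authors' deposited table. On the other side of Btg2, 103 kb away, lies Chil1, a chitinase-like gene, at 0.915 FPKM in T2fx and 0.0679 FPKM in T2Isl1, and its q-value was 0.511 per the authors' deposited table. Tnni1 and Chil1 were not called.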
